A study of Caenorhabditis elegans with 2 samples.

Results

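The regions described here are the intergenic ones among the 2500 sites of highest CEH-83::GFP signal in Caenorhabditis elegans embryos. They are the 402 regions, 16.08% of those 2500, whose summit lay in no protein-coding gene, outside the promoter windows of coding genes (the 1000 bp before a gene start and the 200 bp after it), and over 200 bp from tRNA, snoRNA and snRNA genes. The homeobox gene ceh-83 encodes the tagged protein, and binding was measured by chromatin immunoprecipitation and sequencing (ChIP-seq) with an antibody against GFP, whereas the antibody label reads ceh-83. There was 1 group, with 2 biological replicates and no other genotype, treatment or stage: whole organisms of strain OP727, pooled male and female, as embryos of mixed stages, collected through egg bleaching, with a labelled age of 1 hour. The strain has the allele unc-119(tm4063) and the integrated transgene wgIs727, which holds ceh-83 joined to TY1, EGFP and 3xFLAG together with the rescuing unc-119(+). Both replicates are of this 1 strain, so the signal is that of a tagged protein from a transgene, and all cell types of the embryo were averaged. The labels do not say which promoter drives the transgene, and there was no untagged group.

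Intergenic sequence of the worm is short and crowded. It holds the control regions of neighbouring genes, genes for RNAs that are not translated, and repeated DNA, much of it in short units laid head to tail. Homeobox proteins bind DNA through a small helical domain, and many of them prefer sites around the core TAATTA. RNA polymerase III, which makes tRNAs and other short RNAs, is recruited at many of its genes through sequences called the A box and the B box inside the transcribed part. MicroRNAs are short RNAs that repress messenger RNAs, and the signal recognition particle (SRP) RNA is part of the machine that directs secreted proteins to membranes.

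The members were selected by the authors' deposited signal value in the list made from both replicates pooled, so their signal and rank are given as description without any test. The pooled list and each replicate list held 30000 regions, described in the file listing as peaks and background. The members are set beside the 5646 regions of the pooled list that met the same positional rule but ranked below 2500, called lower-ranked intergenic regions here, the 2098 other regions of the top 2500, and all 24.9 Mb of sequence in which a summit would have met the rule, called eligible sequence here. Shares carry 95% Clopper-Pearson intervals, which cover counting error over regions only and treat neighbouring regions as independent. No total of reads was at hand, and the depth behind each value is unknown.

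A first set of sequences shows members at an ncRNA gene and at an SRP RNA gene, and 1 with a short match to tRNA genes. The coordinates are on ce11 (WBcel235), the bases are from the RefSeq sequence of that assembly, and each stretch surrounds the summit. The region beside D2096.7 (chrIV:8375537-8375687, minus strand) had no annotated gene, and the capitals mark the 30 bases that matched the tRNA gene C28G1.t1 at 86.7% identity in a blastn search. In the region at K10H10.11 (chrII:14496945-14497095, plus strand) the capitals mark the B box core GTTCNANNC. These bases lie before the start of K10H10.11 (14497091) and inside the overlapping ncRNA gene K10H10.14 (14496894 to 14497177). In the region at srpr-2.1 (chrIII:5211202-5211382, plus strand) the capitals mark the bases inside this SRP RNA gene.
region beside D2096.7: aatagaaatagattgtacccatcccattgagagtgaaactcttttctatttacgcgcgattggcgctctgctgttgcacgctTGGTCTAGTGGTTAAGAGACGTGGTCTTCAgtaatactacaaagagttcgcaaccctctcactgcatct
region at K10H10.11: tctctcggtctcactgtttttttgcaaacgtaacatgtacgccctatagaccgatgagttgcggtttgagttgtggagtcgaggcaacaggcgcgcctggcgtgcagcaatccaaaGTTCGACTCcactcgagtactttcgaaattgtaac
region at srpr-2.1: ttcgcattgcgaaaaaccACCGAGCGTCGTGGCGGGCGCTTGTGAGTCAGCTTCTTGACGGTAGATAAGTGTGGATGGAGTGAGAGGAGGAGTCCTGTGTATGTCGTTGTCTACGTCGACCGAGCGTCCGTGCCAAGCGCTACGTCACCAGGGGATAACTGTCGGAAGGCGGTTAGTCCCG

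A second set shows the tandem repeats that were among the highest members, all on the plus strand. The capitals mark every TTCNNGAA, the core of a heat shock element, in the regions beside C33E10.8 (chrX:17288522-17288672) and fbxa-215 (chrIV:13668158-13668308), which share sequence and a repeat unit of 40 bases. In the other lines the capitals mark the first repeat unit of the stretch: 26 bases beside Y49G5A.1 (chrV:5284522-5284672), 9 bases beside T28H10.2 (chrV:12510101-12510251), and 27 bases beside C24H10.4 (chrX:5056303-5056453) and fbxa-55 (chrIII:931535-931685).
region beside C33E10.8: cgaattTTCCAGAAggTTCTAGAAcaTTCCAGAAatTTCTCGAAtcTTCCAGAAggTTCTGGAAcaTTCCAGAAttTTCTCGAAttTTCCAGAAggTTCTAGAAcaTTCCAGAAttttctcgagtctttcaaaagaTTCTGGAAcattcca
region beside fbxa-215: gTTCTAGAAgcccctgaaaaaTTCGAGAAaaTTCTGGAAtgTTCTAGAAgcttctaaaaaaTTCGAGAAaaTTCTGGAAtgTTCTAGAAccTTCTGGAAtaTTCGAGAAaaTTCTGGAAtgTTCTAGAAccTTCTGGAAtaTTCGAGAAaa
region beside Y49G5A.1: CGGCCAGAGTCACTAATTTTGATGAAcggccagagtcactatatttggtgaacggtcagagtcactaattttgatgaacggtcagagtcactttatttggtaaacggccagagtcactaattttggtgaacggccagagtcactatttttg
region beside T28H10.2: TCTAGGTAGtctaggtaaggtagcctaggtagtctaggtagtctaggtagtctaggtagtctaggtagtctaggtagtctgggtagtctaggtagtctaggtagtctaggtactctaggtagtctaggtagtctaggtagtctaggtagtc
region beside C24H10.4: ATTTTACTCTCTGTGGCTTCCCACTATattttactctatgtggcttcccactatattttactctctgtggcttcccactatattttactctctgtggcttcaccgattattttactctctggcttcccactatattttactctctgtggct
region beside fbxa-55: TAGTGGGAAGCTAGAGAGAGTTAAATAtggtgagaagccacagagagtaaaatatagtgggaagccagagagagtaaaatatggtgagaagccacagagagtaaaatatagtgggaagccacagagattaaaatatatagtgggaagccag

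The last set shows members with neither an annotated gene nor a masked repeat at the summit that hold GAGAGA, which the capitals mark on either strand. They lie beside Y105C5A.1 (chrIV:15570889-15571039), gpb-1 (chrII:11749910-11750060) and rnr-1 (chrIII:9225145-9225295), and all are printed on the plus strand.
region beside Y105C5A.1: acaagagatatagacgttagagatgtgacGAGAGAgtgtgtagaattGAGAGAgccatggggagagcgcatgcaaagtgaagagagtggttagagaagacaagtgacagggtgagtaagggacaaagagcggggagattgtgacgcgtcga
region beside gpb-1: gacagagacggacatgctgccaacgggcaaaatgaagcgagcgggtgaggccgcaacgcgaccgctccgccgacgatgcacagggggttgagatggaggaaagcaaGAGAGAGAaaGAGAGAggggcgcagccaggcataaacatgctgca
region beside rnr-1: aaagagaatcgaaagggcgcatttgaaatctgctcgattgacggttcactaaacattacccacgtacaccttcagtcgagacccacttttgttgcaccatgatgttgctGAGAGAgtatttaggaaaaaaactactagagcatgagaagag

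Signal and reproducibility come next. The members' pooled signal values ran from 163.5 to 1471, with a median of 184.9, against 191.2 in the other regions of the top 2500 and 102.7 in the lower-ranked intergenic regions. Intergenic sequence was thinly represented at the very top: it gave 13 of the first 250 regions (5.2%) and 102 of the 500 regions ranked from 2001 to 2500 (20.4%), against 20.16% of the whole pooled list. The last members inside the limit, at ranks 2487, 2488, 2494, 2495 and 2500, had signals of 163.8 to 163.5, with mlt-4, trmt-10C.2, clec-73, spi-4 and alr-1 as nearest coding genes. The first regions outside it that met the positional rule, at ranks 2505, 2506, 2509, 2516 and 2518, had 163.4 to 163.2 and were nearest to elt-3, R09E10.2, srh-105, pot-3 and F22F7.7.

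The authors' IDR list (irreproducible discovery rate, which scores how well the ranks of replicates match) held 174 of the 402 members (43.3%, interval 38.4 to 48.3%). Among all 2500 regions the share was 50.3%, and among the whole pooled list it was 4.19%. The 1258 IDR peaks were also the 1258 highest regions of the pooled list, so this status restates the rank that chose the members. In the replicates' own lists, 155 members (38.6%, interval 33.8 to 43.5%) lay among the 2500 highest regions of both, within 100 bp of a summit in each. That share was 47.9% of all top regions and 4% of the whole pooled list, and the pooled list contains the reads of both replicates.

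Most members were listed in both replicates, but often at unequal strength. A summit within 100 bp was listed in both replicates for 367 members, in replicate 1 only for 20 and in replicate 2 only for 15. That is 91.3% of members (interval 88.1 to 93.9%), against 92.7% of the other top regions and 47.3% of lower-ranked intergenic regions. Among the 2500 highest of replicate 1 only were 99 members, of replicate 2 only 119, and of neither 29. Over the 367 members listed in both, the log2 signal of replicate 1 over replicate 2 had a median of -0.19 and an SD of 0.42. Spearman's rho between the 2 lists was 0.11 over these members and 0.23 over the 2668 lower-ranked intergenic regions listed in both; both are given as descriptions across regions, which share the 2 libraries and were selected on the pooled signal. A few strong members stood apart from a dense group near the selection limit, as the plot of replicate signals shows.

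**Figure D1:**
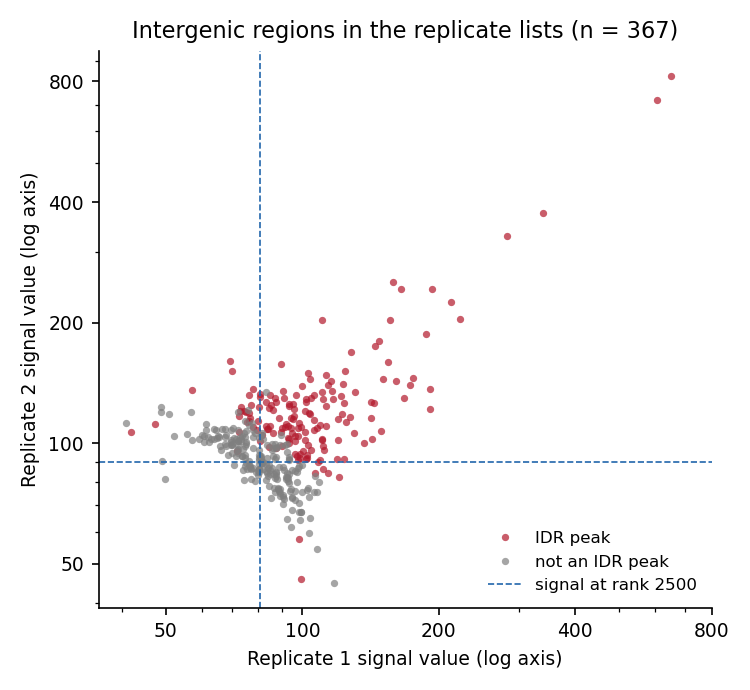
Signal value of 367 intergenic regions of the top 2500 in replicate 1 (horizontal, log axis) and replicate 2 (vertical, log axis), with IDR peaks in red and other members in grey, and dashed lines at the signal of rank 2500 in each replicate. The 2 highest points are the regions at mir-51 and mir-52, and most of the others lie between 50 and 200 in both.

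Each member was put in 1 kind by what lay within 200 bp of its summit or, failing that, by its sequence; this sorting was added after the data had been seen. There were 8 members at a microRNA gene, 73 at another non-coding RNA gene, 15 at a pseudogene, 11 in a tandem repeat, 66 in other soft-masked repeat sequence and 229 (57.0%, interval 52.0 to 61.9%) with none of these. Of lower-ranked intergenic regions 53.5% had none of these, which is inside the members' interval. Their shares were lower than the members' at microRNA genes (0.283% against 1.99%), other non-coding RNA genes (12.8% against 18.2%) and tandem repeats (0.762% against 2.74%). They were higher at pseudogenes (8.89% against 3.73%) and other masked repeats (23.8% against 16.4%). Tandem repeats had the highest median signal, 254.0, and 9 of the 11 were IDR peaks. The medians were 213.9 at microRNA genes, 190.5 at other non-coding RNA genes, 184.7 without annotation, 177.5 in other masked repeats and 174.7 at pseudogenes, where 3 of 15 were IDR peaks.

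**Figure D2:**
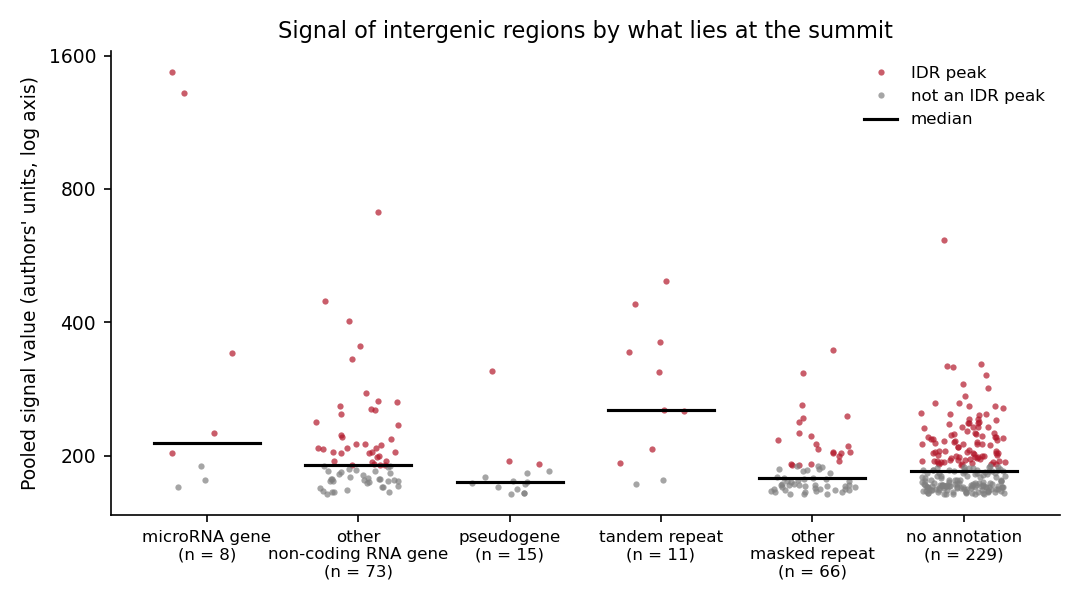
Pooled signal value (log axis, the authors' units) of each of the 402 intergenic regions, by kind, with IDR peaks in red, others in grey and the median as a black bar. Medians run from 174.7 at pseudogenes to 254.0 in tandem repeats, and the 2 values above 1000 belong to microRNA genes.

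Genes for non-coding RNA were the most frequent annotation. Ensembl's general class ncRNA, short transcribed units mostly without a known role, lay at 71 members (17.7%, interval 14.1 to 21.7%), against 8.48% of lower-ranked intergenic regions (interval 7.77 to 9.24%) and 4.78% of eligible sequence. The other regions of the top 2500 had nearly the same share as the members, 16.5% (interval 14.97 to 18.2%). Within the middle range of G and C content of the members, 37.6% to 49.3%, the shares were 19.2% of members (interval 14.0 to 25.3%) and 10.4% of lower-ranked regions (interval 9.17 to 11.8%). Inside this range the median G and C content still differed, at 43.6% in members and 41.6% in lower-ranked regions, and the part of base composition was not tested. These members touched 103 of the 7764 ncRNA genes, whose median length at these sites was 150 bp. Over member and gene pairs, the summit was inside the gene in 51, upstream of it in 32 and downstream in 28. The annotation does not say in which tissue or stage these genes are transcribed.

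The share at any such RNA gene, microRNA, lincRNA and piRNA genes included, was 53.8% (7 of 13) in the first 250 ranks, 26.7% (8 of 30) in ranks 251 to 500 and 10.8% (11 of 102) in ranks 2001 to 2500. The last of these is close to the 13.1% of lower-ranked intergenic regions. Over all members it was 20.1% (81 of 402, interval 16.3 to 24.4%).

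MicroRNA genes lay at 8 members (1.99%, interval 0.863 to 3.88%), against 16 lower-ranked intergenic regions (0.283%, interval 0.162 to 0.460%) and 0.206% of eligible sequence. The other top regions had 0.715% (interval 0.401 to 1.18%), which overlaps the members' interval. Within the middle range of G and C content the shares were 1.97% of members (interval 0.539 to 4.97%) and 0.373% of lower-ranked regions (interval 0.161 to 0.733%). These intervals overlap too. The region at mir-51 (rank 5, chromosome IV from 11026104 to 11026346) had a pooled signal of 1471, with 649.0 in replicate 1 and 824.7 in replicate 2. The region inside mir-52 (rank 7, IV from 14033877 to 14034215) had 1319 in the pooled list, 606.3 in replicate 1 and 719.2 in replicate 2, and a further member beside it (rank 242) had 340.0. Both genes are of the mir-51 family, which acts in the embryo. The others, at mir-79, mir-72, mir-80, mir-2211 and mir-8196.1, had signals of 225.3 down to 169.6. The summit was upstream of the annotated hairpin for 5 of the 8 members.

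After these came rank 48, which lay at the overlapping ncRNA genes K10H10.11 and K10H10.14 (II, 14496798 to 14497241), and its sequence is printed above with the B box core. Its signal was 710.9 in the pooled list, 338.7 in replicate 1 and 376.1 in replicate 2. The region at mir-51 (rank 5) held the B box core within 50 bp of its summit too. This core was in 3.48% of members and 4.30% of lower-ranked regions. The next, rank 65 (IV, 8375390 to 8375833), lay in a gap of 350 bp between coding genes, 110 bp downstream of D2096.7, and no non-coding gene is annotated within 200 bp. Its signal was 614.6 in the pooled list, 283.0 in replicate 1 and 329.7 in replicate 2. The stretch printed above matched 17 annotated tRNA genes, best over 30 bases. Within 50 bp of the summit it held neither of the exact strings searched, GTTCNANNC for the B box and TGGCNNAGT for the A box. The matched bases begin with TGGTCTAGT, which departs from the A box string only by a T in place of its C. Looser forms of the A box were not searched. In the blastn search of all intergenic summit windows against 1092 annotated tRNA, snoRNA, snRNA and SRP RNA genes, 2 members (0.498%) and 24 lower-ranked regions (0.425%) had a tRNA gene as their best match, and the members' interval of 0.0603 to 1.79% held the lower-ranked share. A snoRNA gene was the best match of 13 members (3.23%, interval 1.73 to 5.47%), against 2.55% of lower-ranked regions. The longest of these, 96 bases at 92.7% identity to T21F2.3, was at rank 2112, the member at mir-8196.1. Any of these classes was matched by 18 members (4.48%, interval 2.67 to 6.98%), against 3.05% of lower-ranked regions.

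A few members lay at SRP RNA genes. Of the 5 genes named srpr, looked up after the values were seen, 2 had members within 200 bp, 3 in all. The genes were srpr-2.1 on chromosome III with ranks 145 (signal 447.8) and 453 (255.2), and srpr-3 on chromosome V with rank 936 (203.8). The summits of ranks 145 and 936 lay inside the genes. That of rank 453 lay downstream, 322 bp from the start of a gene of 299 bp, and 200 bp from the rank 145 summit. The region at rank 145 had 212.8 in replicate 1 and 225.7 in replicate 2, while that at rank 936 had 99.1 and 45.9. The 45.9 is near the lowest values of replicate 2, where lower-ranked intergenic regions went down to 44.5. Its signal at rank 2500 was 89.7, so the srpr-3 region rests mainly on replicate 1. The other 3 genes, srpr-1.1, srpr-1.2 and srpr-2.2, also had pooled summits within 200 bp, the highest at ranks 278, 266 and 110, but those summits lay inside coding genes. Within 100 bp of the rank 145 summit 15.8% of the words of 31 bases occurred once in the genome, and the median word occurred 2 times, and how reads were assigned between copies was not tested. At ranks 453 and 936 the unique shares were 94.2% and 99.4%. Other RNA polymerase III genes looked up by name were outside the members: rpr-1, the RNA of ribonuclease P, had rank 39 inside a coding gene, mrpr-1, the RNA of ribonuclease MRP, had rank 95 in a promoter window, and yrn-1, a Y RNA, had no summit within 200 bp.

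A further ncRNA gene held members at both ends. C30E1.9 on the X chromosome is 14770 bp long, and its members lay 134 bp and 14310 bp from its start, with signals of 401.9 (rank 181) and 253.9 (rank 457). The first had 164.9 in replicate 1 and 242.9 in replicate 2. Rank 221, at the ncRNA genes T22B2.12 and T22B2.9 (X, 3914208 to 3914651), lay 335 bp from idpp-9 and had 353.1, with 156.3 in replicate 1 and 203.2 in replicate 2. Long intergenic RNA (lincRNA) genes lay at 7 members (1.74%, interval 0.703 to 3.55%). The shares of lower-ranked regions, 1.22%, and of eligible sequence, 0.929%, were inside that interval. The other top regions had 0.238% (interval 0.0774 to 0.555%). However, 152 of the 194 lincRNA genes lie outside coding genes, and the positional rule itself places the other top regions at coding or small RNA genes. The highest lincRNA member was at linc-128 beside the calmodulin gene cmd-1 (V, 1151298 to 1151741), with a signal of 265.0 (112.5 in replicate 1 and 148.2 in replicate 2). The next were K09A9.12 (rank 1528) and linc-156 (rank 1675).

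Pseudogenes and piRNA genes took smaller shares of the members than of lower-ranked regions. Pseudogenes lay at 16 members (3.98%, interval 2.29 to 6.38%), against 9.28% of lower-ranked regions (interval 8.54 to 10.1%) and 12.8% of eligible sequence. The share was 0.429% in the other top regions, which the positional rule itself places at coding or small RNA genes, while 1796 of 2128 pseudogenes lie outside coding genes. The highest, at T26C11.3 on the X chromosome, had a signal of 311.2, with 172.4 in replicate 1 and 139.8 in replicate 2, and the next were Y71A12B.13 (rank 1143) and T03F6.8 (rank 1205). Genes for piRNAs, short RNAs of the germ line that silence transposons, lay at 2 members (0.498%, interval 0.0603 to 1.79%), against 3.38% of lower-ranked regions (interval 2.93 to 3.89%) and 6.20% of eligible sequence. The other top regions had about the members' share, 0.572% (interval 0.296 to 0.997%). Within the middle range of G and C content the piRNA shares were 0.985% of members (interval 0.120 to 3.51%) and 1.91% of lower-ranked regions (interval 1.37 to 2.58%), which overlap. No member lay at an antisense RNA gene or at an rRNA gene, and 0 of 402 allows a share of up to 0.746%, taking 3 counts as the limit of a count of 0. Antisense RNA genes lay at 0.0886% of lower-ranked regions and 0.0788% of eligible sequence, and rRNA genes at 0% and 0.0591%. All of these shares are below that limit, so the absence does not set the members apart.

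**Figure D3:**
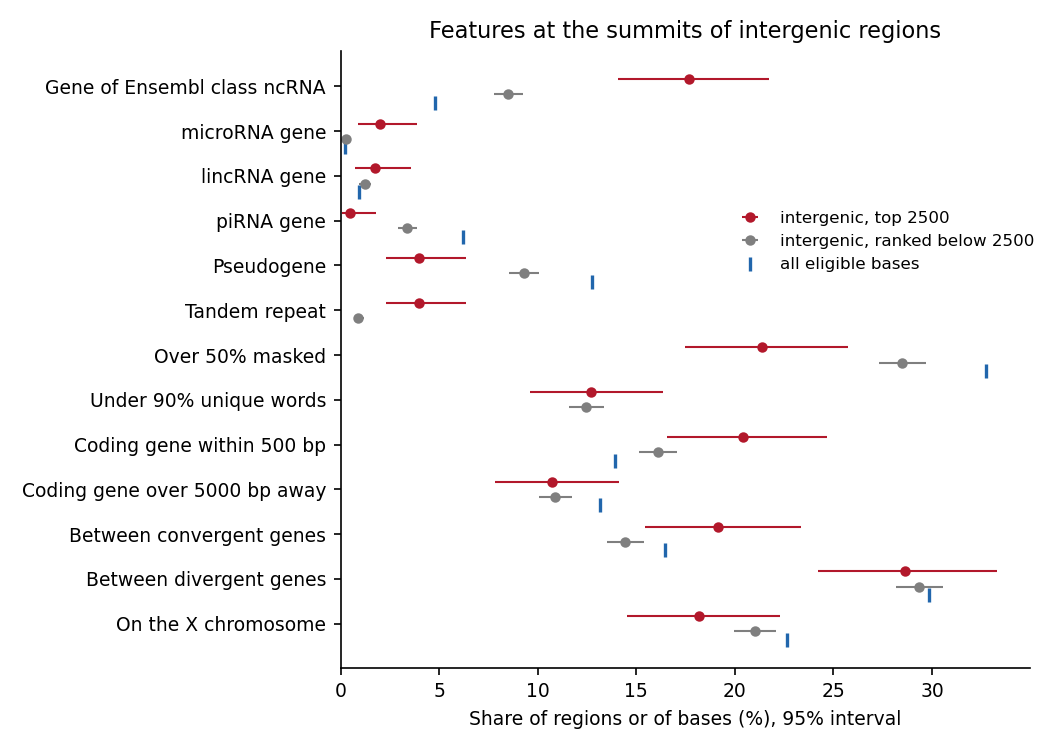
Share of intergenic regions of the top 2500 (red) and of lower-ranked intergenic regions (grey) with each feature within the stated distance of the summit, in percent with 95% Clopper-Pearson intervals; blue ticks give the share of all eligible bases where it was computed. Genes of the class ncRNA lie at 17.7% against 8.48%, pseudogenes at 3.98% against 9.28% and tandem repeats at 3.98% against 0.886%.

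Repeated sequence gave a mixed picture. Soft-masked bases made up over 50% of the sequence within 100 bp of the summit in 86 members (21.4%, interval 17.5 to 25.7%), against 28.5% of lower-ranked regions (interval 27.3 to 29.7%) 32.7% of eligible windows and 15.8% of the other top regions. Within the middle range of G and C content the shares were 19.7% of members and 19.2% of lower-ranked regions. Under 90% of the words of 31 bases were unique in 51 members (12.7%, interval 9.59 to 16.3%), in 16.4% of the other top regions and in 12.5% of lower-ranked regions. Tandem repeats took a larger share of the members. Counting also those at annotated genes, 16 members (3.98%, interval 2.29 to 6.38%) held sequence that matched itself at 75% or more of its bases when shifted by 5 to 60 bases, against 14 of the other top regions (0.667%, interval 0.365 to 1.12%) and 50 lower-ranked regions (0.886%, interval 0.658 to 1.17%).

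The highest tandem repeat (rank 114, V from 5284375 to 5284818), printed above beside Y49G5A.1, had a signal of 495.2, with 158.1 in replicate 1 and 252.4 in replicate 2. The regions beside C33E10.8 on the X chromosome (rank 153) and fbxa-215 on chromosome IV (rank 471) shared words of 31 bases, and each held 16 copies of TTCNNGAA within 100 bp of the summit. Their signals were 439.0 (192.8 and 242.4 in replicates 1 and 2) and 252.0 (116.2 and 134.9). Another member with 11 copies, rank 2077 at the ncRNA gene Y41E3.460, had 170.2 (48.7 in replicate 1 and 122.9 in replicate 2). Heat shock factor binds such arrays in many animals. The motif was read from these repeats and then counted, and 4.98% of members held it within 50 bp of the summit (interval 3.07 to 7.58%), against 6.68% of lower-ranked regions and 6.77% of eligible windows. At least 4 copies within 100 bp were held by 3 members (0.746%, interval 0.154 to 2.17%) and by 17 lower-ranked regions (0.301%).

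A pair of repeats of 27 bases, beside C24H10.4 on the X chromosome (rank 234) and beside fbxa-55 on chromosome III (rank 305), shared words of 31 bases. A further member, rank 423 on chromosome I, shared such words with at least 1 of the pair. The signals of the pair were 343.2 (187.4 in replicate 1 and 187.2 in replicate 2) and 308.6 (222.3 and 203.8). Rank 423, whose self-match of 45.4% at 27 bases was below the limit for a tandem repeat, had 262.3 (167.2 and 129.4). A word in the region at rank 234 occurred 189 times in the genome at the median, and 7.02% of its words were unique. The repeat of 9 bases beside T28H10.2 (rank 214) had 361.7 in the pooled list and 194.0 in replicate 2, and no summit of replicate 1 lay within 100 bp. Of the 86 masked members 87.2% were listed in both replicates (interval 78.3 to 93.4%), against 92.4% of the 316 others (interval 88.9 to 95.1%), and the intervals overlap. How far the number of genomic copies or the assignment of reads between copies contributes to these signals was not tested.

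The sequence at the summit was richer in G and C. Within 50 bp of the summit the median G and C content was 43.6% in the members (interval 42.6 to 45.5%), 36.6% in lower-ranked intergenic regions and 44.6% in the other regions of the top 2500, while eligible windows had a median of 33.7%. Along the pooled list the median of the intergenic regions was 46.5% in the first 250 ranks, 48.5% in ranks 251 to 500, 42.1% in ranks 2001 to 2500 and 36.6% beyond rank 10000. ChIP-seq signal can vary with base composition, and its part in the ranking was not tested.

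Short sequences were searched within 50 bp of the summit on both strands, as letters without any test. GAGAGA was found in 58 members (14.4%, interval 11.1 to 18.2%), against 7.95% of lower-ranked regions (interval 7.26 to 8.69%) and 5.33% of eligible windows. The other top regions had 11.5% (interval 10.2 to 12.9%), which overlaps the members' interval. Within the middle range of G and C content the shares were 14.3% (interval 9.78 to 19.9%) and 11.0% (interval 9.70 to 12.4%), which overlap. In ranks 251 to 500 it was held by 11 of 30 intergenic regions (36.7%), and in the first 250 ranks by 0 of 13. Of the 58 members with GAGAGA, 39 had no annotation, as had 57.0% of all members. Its share was 17.0% in unannotated members, 17.7% in all members without over 50% masking and 2.33% in the masked members. GGGCGG was in 5.47% of members, 6.58% of the other top regions and 2.87% of lower-ranked regions. It was in 2.46% of members and 4.47% of lower-ranked regions within the middle range of G and C content, so its direction turned within that range, where the intervals overlap.

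The homeobox core TAATTA was found in 8 members (1.99%, interval 0.863 to 3.88%), against 4.46% of lower-ranked regions (interval 3.94 to 5.03%), 2.96% of the other top regions and 5.22% of eligible windows. Within the middle range of G and C content it was 1.97% of members (interval 0.539 to 4.97%) and 2.61% of lower-ranked regions. The B box core GTTCNANNC was in 14 members (3.48%, interval 1.92 to 5.77%), in 4.30% of lower-ranked regions and in 10.6% of the other top regions, which include those at tRNA genes. The A box core TGGCNNAGT was in 5 members (1.24%) and 1.20% of lower-ranked regions. Runs of TTTTTT, the letters at which RNA polymerase III stops, were in 26.9% of members (interval 22.6 to 31.5%), 30.2% of the other top regions and 43.4% of lower-ranked regions, and in 22.7% (interval 17.1 to 29.0%) and 29.5% (interval 27.6 to 31.5%) within the middle range of G and C content, where the intervals overlap. The splice acceptor letters TTTCAG were in 9.95% of members, 13.2% of the other top regions and 14.3% of lower-ranked regions, and TATAAA in 5.47%, 7.05% and 10.4% of them. Within the middle range of G and C content TTTCAG was in 8.37% of members (interval 4.95 to 13.1%) and 11.2% of lower-ranked regions (interval 9.88 to 12.6%). TATAAA was there in 2.46% (interval 0.804 to 5.65%) and 6.01% (interval 5.04 to 7.10%), and the intervals overlap for both. No match here says that a factor binds, and no absence says that it does not.

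**Figure D4:**
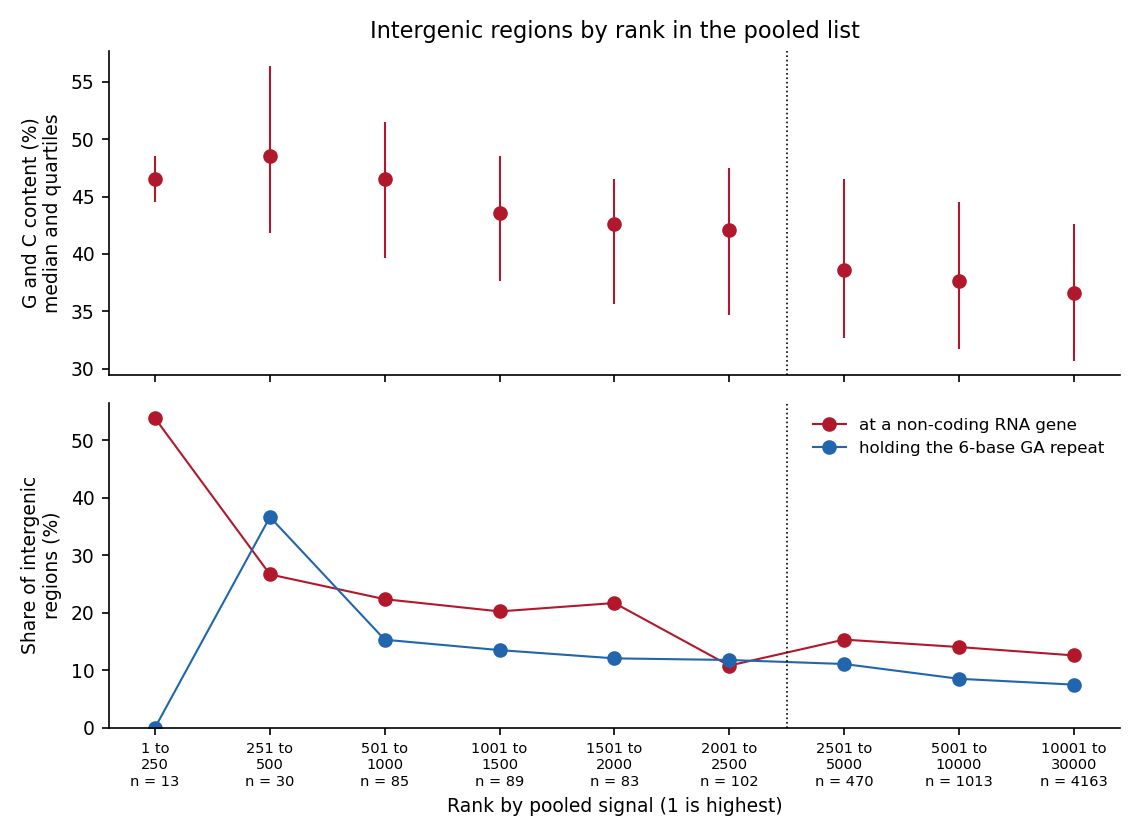
Intergenic regions by rank in the pooled list (1 is highest): median G and C content with quartiles within 50 bp of the summit (upper panel), and the share at a non-coding RNA gene other than a pseudogene (red) or holding GAGAGA (blue, lower panel). The dotted line marks rank 2500; the median is 46.5% in the first 250 ranks and 36.6% beyond rank 10000.

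Distance to coding genes was set in part by the rule. The median distance from summit to nearest coding gene was 1450 bp in the members (interval 1316 to 1710 bp), 1732 bp in lower-ranked regions (interval 1691 to 1787 bp) and 1869 bp over eligible sequence. A coding gene lay within 500 bp of 82 members (20.4%, interval 16.6 to 24.7%), against 16.1% of lower-ranked regions (interval 15.1 to 17.1%) and 13.9% of eligible sequence; the intervals of both sets of regions overlap. Since the promoter windows reach 1000 bp upstream, these are sites near gene ends. Over 5000 bp from any coding gene lay 43 members (10.7%, interval 7.85 to 14.1%), against 10.9% of lower-ranked regions.

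The nearest coding gene had the summit on its downstream side for 207 members (51.5%, interval 46.5 to 56.5%), against 50.4% of lower-ranked regions and 50.5% of eligible sequence, and for 12 of the 13 members of the first 250 ranks. Between convergent genes, which end towards each other, lay 77 members (19.2%, interval 15.4 to 23.3%), against 14.4% of lower-ranked regions (interval 13.5 to 15.4%) and 16.5% of eligible sequence, so the intervals barely separated and that of the members held the eligible share. The convergent share was 29.1% of the 86 masked members (interval 19.8 to 39.9%) and 16.5% of the 316 others (interval 12.5 to 21.0%), which overlap. Between divergent genes lay 28.6% of all members, against 29.3% of lower-ranked regions.

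The 5 members farthest from a coding gene lay 14091 to 10822 bp away. The farthest (rank 1718, IV from 14602290 to 14602733), upstream of dmd-6, a DM domain gene, had a signal of 177.1, with 96.4 in replicate 1 and 75.9 in replicate 2, and lay at piRNA genes. A pair beside F57G12.1 on the X chromosome, at ranks 797 and 1339, had 213.6 and 187.2. The others lay beside T06A4.1 (177.2) and the nuclear hormone receptor gene nhr-61 (186.4).

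A few genes had several members near them; apart from the highest, the regions in the next sentences were picked after their values were seen. The 402 members formed 379 loci when summits within 1000 bp were joined, and 20 loci held 43 of them, with up to 4 in 1 locus. They had 364 distinct nearest coding genes, of which 30 were nearest to more than 1 member. Y75B8A.6 on chromosome III had 5 members, with signals of 186.1 down to 169.9. Upstream of ztf-6, a zinc finger gene on chromosome I, there were 4 members 3580 to 9794 bp away, with signals of 290.5, 220.6, 168.5 and 167.3; the highest was also the highest member of that chromosome, with 127.7 in replicate 1 and 169.2 in replicate 2.

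The heterochronic gene hbl-1, a zinc finger regulator of developmental timing on the X chromosome, was nearest to 4 members. In the interval of 16219 bp between hbl-1 and the divergent gene F13D11.3 there were 5 members, 4 of them at ncRNA genes. The highest had its summit inside F13D11.22 and within 200 bp of F13D11.7, F13D11.9 and F13D11.13 (rank 378, 5811937 to 5812380), with a signal of 277.1, 124.3 in replicate 1 and 151.5 in replicate 2. The others in that interval had 208.1, 210.8, 180.4 and 167.2. Beside set-16, a gene for a histone methyltransferase, were 2 members with 255.7 and 188.7, and upstream of egl-27, a chromatin gene of the MTA family, 2 with 238.7 and 177.1, both at ncRNA genes.

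Classes of nearest coding genes were sparse. Chemoreceptor genes were nearest to 7 members (1.74%, interval 0.703 to 3.55%), against 3.33% of lower-ranked regions; srgp-1, whose symbol resembles theirs, was not counted. Homeobox genes were nearest to 2 members (0.498%, interval 0.0603 to 1.79%), against 1.29%. These were lin-39, a Hox gene, with a signal of 170.5, and alr-1, with 163.5. Nuclear hormone receptor genes were nearest to 5 members (1.24% against 2.04%), F-box genes to 5 (1.24% against 0.744%), C-type lectin genes to 6 (1.49% against 0.638%), and collagen (0.498% against 0.921%) and neuropeptide genes (0.498% against 1.17%) to 2 each. Of the 78 ribosomal protein genes 1, rpl-31, was nearest to a member, as were 1 of 53 heat shock genes, the Hsp70 gene hsp-1, and 1 of 185 detoxification genes. No histone or tRNA synthetase gene was, which by the same limit of 3 counts allows up to 0.746%. For each of these 12 lists the members' interval included the share of lower-ranked regions.

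Chromosomes differed in density. Per Mb of eligible sequence there were 24.3 members on chromosome I, 21.9 on II, 27.3 on III, 13.2 on IV, 7.97 on V and 12.9 on X. Lower-ranked intergenic regions numbered 285 per Mb on chromosome I, 249 on II, 298 on III, 187 on IV, 196 on V and 210 on X, so both sets were densest on I, II and III. Chromosome V differed most: it held 41 members (10.2%, interval 7.42 to 13.6%), against 17.8% of lower-ranked regions and 20.6% of eligible sequence. The X chromosome held 73 members (18.2%, interval 14.5 to 22.3%), against 21.0% of lower-ranked regions (interval 19.9 to 22.1%) and 22.7% of eligible sequence. Of its members 40 (54.8%) were IDR peaks, the highest share of the 6 chromosomes, against 38.2% to 46.3% on the others. In the middle part of the chromosomes, leaving out the outer 25% at each end, lay 44.3% of members, 42.7% of lower-ranked regions and 45.9% of eligible sequence.

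**Figure D5:**
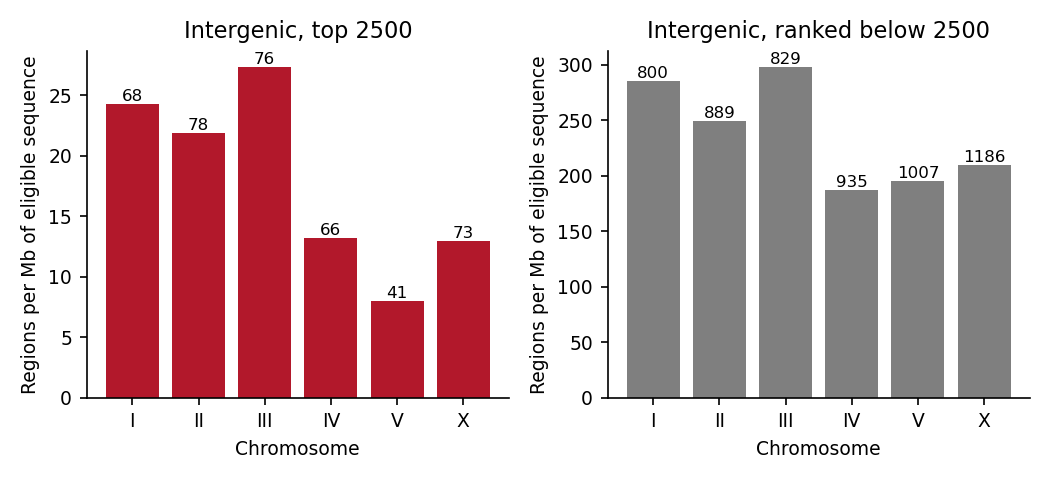
Intergenic regions per Mb of eligible sequence on each chromosome, for the top 2500 (left) and for ranks below 2500 (right), with the number of regions above each bar. In both sets chromosome III has the highest density; the lowest is 7.97 per Mb on V in the top 2500 and 187 per Mb on IV below it.

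With RefSeq gene models on the same assembly 400 of the 402 members were still intergenic, and 2, beside sap-49 and cdc-5L, lay inside a coding gene.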

How the data were processed

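ChIP-seq with anti-GFP was deposited for 2 biological replicates of tagged CEH-83 in mixed-stage embryos, as lists of regions on ce11: 1 list per replicate, 1 of both pooled, and 1 IDR list, per the labels and the deposited file listing. Signal values are the authors' own per region, on a scale of its own in each list. A further column deposited in the place of q-values, handled as a score, was mostly below 0 and entered no result. Summits were placed from the deposited offset. For the aligner, the peak caller, the IDR threshold and the read totals: not given in the sources used here. A control named in the labels was not analysed here.

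Summits were placed with Ensembl gene models (release 115), with symbols from RefSeq for 19965 of 19973 coding genes, and repeat masking and sequence from the RefSeq copy of WBcel235. Words of 31 bases were counted over the genome, and blastn 2.17.0 (word size 7, E value up to 0.001) compared summit windows with short RNA genes. Computation used Python 3.11.15, numpy 2.4.6, scipy 1.17.1 and pandas 2.3.3. The classification of summits and the counting of words were tested on simulated data, and the other steps were not. No test across conditions was possible, since there was 1 group. Results are counts, shares with 95% Clopper-Pearson intervals, and medians with intervals from order statistics.

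Regions named by rule were the 10 of highest signal, the highest per chromosome, the 5 farthest from coding genes, the 3 highest per non-coding class and in repeated sequence, and the 5 on either side of rank 2500. Members, lists and motifs were chosen with earlier results of these data known. The kinds, the tandem repeat definition, TTCNNGAA, the comparison within a range of G and C content and the similarity search were added after seeing the data. Alternatives varied the number of regions, the windows and margins, the matching distance, the repeat definition, the gene models and the replicate used.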

Additional observations from a re-analysis of the deposited data

How the results depend on the processing

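No paired analysis was possible because there was 1 group, so no replicate numbers are shared between groups. With as many regions as IDR peaks in place of 2500, 174 were intergenic, 24.7% of them at a non-coding RNA gene and 23.0% on the X chromosome, with a median G and C content of 46.5%. With 5000 regions, 872 were intergenic, 19.95% of them IDR peaks, with a median G and C content of 41.6%. Taking 1 replicate's list in place of the pooled one gave 35.0% to 39.5% IDR peaks and 395 to 406 intergenic regions, of which 271 (68.6%, without replicate 1) and 251 (61.8%, without replicate 2) were shared with the members. Recurrence in both replicates was 30.6% with summits within 50 bp, 18.4% among as many of each replicate as IDR peaks and 71.4% among 5000 of each. The share at a non-coding RNA gene was 11.2% with a margin of 0 bp and 27.9% with 500 bp. Repetitive sequence made up 21.1% with words of 24 bases, 7.46% with 50 bases and 21.4% by soft masking over 50%. The median distance to a coding gene was 1109 bp with promoter windows of 500 and 100 bp, 2242 bp with 2000 and 200 bp, and 1228 bp from the region's edge. Each of these settings changes which regions or bases are counted. With 2 replicates the spread rests on 1 difference per region, and the depth behind it is unknown.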
